A study of Homo sapiens with 4 samples.

Results

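SNAI1, SNAI2, ZEB1, ZEB2, TWIST1 and TWIST2, the core transcription factors of the epithelial–mesenchymal transition (EMT), were followed through the RNA-seq libraries of MHCC-97H cells. They were taken by gene symbol and Ensembl identifier, and all 6 were found among the 58735 genes counted and among the 19895 genes tested. MHCC-97H is an established metastatic hepatocellular carcinoma (HCC) line, labelled WT in every library. The cells had been given PBS, or 2 μg of migrasomes (Migs, vesicle-bearing organelles that migrating cells leave behind), for 24 h. The Migs came from MHCC-97H cells in normoxia (normo-Migs), from MHCC-97H cells in hypoxia (hypo-Migs), or from a CD147-knockout MHCC-97H line in hypoxia (CD147KO-Migs), so the knockout lay in the donor cells and the recipients' own CD147 reads cannot check that label. The oxygen level used for these Migs, and whether the knockout line was 1 clone, are not given in the sources used here. Each condition had 1 library, 4 in all, and no difference below has a replicate check.

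EMT factors switch off epithelial genes such as E-cadherin and accompany the gain of migratory, mesenchymal traits in carcinoma. SNAI and ZEB proteins are zinc-finger repressors that bind E-box motifs containing CAGGTG, whereas TWIST proteins are basic helix-loop-helix (bHLH) factors that bind E-boxes as dimers with E proteins. ZEB factors and the miR-200 family repress each other, a double-negative loop that holds cells in an epithelial or a mesenchymal state. In HCC these factors have been studied for invasion, metastasis and drug resistance, and TWIST1 also for the formation of vessel-like channels by tumour cells (vasculogenic mimicry).

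The sequences of this loop are given first, since both ZEB genes carry its letters and the other factors hardly do. Mature miR-200 family members, from RefSeq (GRCh38.p14), fall into 2 groups by seed (bases 2 to 8, in capitals), which differ at 1 base of the seed:
hsa-miR-200b-3p: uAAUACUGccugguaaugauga
hsa-miR-200c-3p: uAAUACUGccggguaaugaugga
hsa-miR-429: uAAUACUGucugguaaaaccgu
hsa-miR-200a-3p: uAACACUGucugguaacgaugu
hsa-miR-141-3p: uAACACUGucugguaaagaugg

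The reverse complements of the seeds, CAGTATT and CAGTGTT, were searched on the sense strand in the longest annotated 3′ UTR of each factor (GENCODE release 29). ZEB1 held 9 matches in 2549 bases (6 of CAGTATT and 3 of CAGTGTT), and ZEB2 held 9 in 5370 bases (5 and 4). Among the 4392 genes with a 3′ UTR at least as long as that of ZEB1, cut to the same length, 48.7% held at least 1 match and 0.0455% held 9 or more. For the length of ZEB2, 74.7% of 1078 held at least 1 and 0.0928% held 9 or more. The factors themselves are among the genes compared. The 0.0455% is 2 genes, ZEB1 and ZEB2, and the 0.0928% is ZEB2 alone. SNAI2 had 1 match, and SNAI1, TWIST1 and TWIST2 had 0. Both seeds are represented in both ZEB genes, as in these 4 of the 18 matches, with the matched letters in capitals:
ZEB1, chr10:31527626-31527646, plus strand: atcttatCAGTATTatcactc
ZEB1, chr10:31528790-31528810, plus strand: gatttaaCAGTGTTatgttaa
ZEB2, chr2:144388983-144389003, minus strand: aatgcatCAGTATTatgattc
ZEB2, chr2:144389230-144389250, minus strand: ttttgtaCAGTGTTaaggcct

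A match is a run of letters and not a measured site. The hairpin genes MIR200A, MIR200B, MIR200C, MIR141 and MIR429 were at 0 reads in all 4 libraries, which allows up to 0.0885 reads per 1000000 reads on genes (counts per 1000000, CPM) in the PBS library and 0.0745 in the hypo-Migs library. Libraries of mRNA do not measure mature miRNAs, so these counts say nothing about miR-200 levels.

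Reads on genes ran from 33882496 in the PBS library to 40285223 in the hypo-Migs library. The library labelled PBS stood apart from the Mig libraries. Its log2 CPM correlated with theirs at r = 0.907 to 0.908 across the genes tested, which share their libraries and are no replicates, against 0.988 for each pair of Mig libraries, and mitochondrial genes took 2.69% of its reads against 5.00% to 5.16%. Among 21 hepatocyte and liver cancer markers, ALB, AFP, APOB, TTR and GPC3, which define the lineage, were at 0 reads in all libraries, and 8 had more than 3 reads with PBS against 12 to 15 with Migs. Of these markers 14 were tested, and 6 were called higher (by the criteria given below) in every Mig library and 1 lower. These are 42.9% and 7.14%, against 16.5% to 17.5% and 10.7% to 10.9% of all genes. The fibrinogen chain genes moved most, with FGA at 0 reads with PBS and 395, 493 and 462 with normo-Migs, hypo-Migs and CD147KO-Migs, FGB at 0 and 561, 827 and 832, and FGG at 6 and 205, 322 and 381. FGA, FGB and FGG were thus higher in the same libraries as SNAI1 and TWIST1. The marker called lower was SERPINA1, with 25 reads with PBS and 2, 9 and 10 with Migs. CEBPA (127 reads with PBS and 76, 114 and 86 with Migs) and AHSG (11 and 11, 9 and 10) were not called. Summed fibroblast and stellate cell markers (10 genes) were at 26.2 CPM with PBS and 209 to 225 CPM with Migs. Of the 10, 7 are also in the lists of EMT genes used here. Among the 8 tested, 6 were called higher in every Mig library, or 75%, against 16.5% to 17.5% of all genes. COL1A1, PDGFRB and THY1 had the most reads with Migs. COL3A1 (27 reads with PBS and 14, 27 and 20 with Migs) and ACTA2 (71 and 68, 95 and 70) were not called. COL1A2 and PDGFRA had 2 reads or fewer in every library. Leukocyte markers (10 genes) summed to 1.30 CPM against 7.90 to 8.30, with CD3E at 0 reads in all libraries and PTPRC at 2 or fewer. Only 3 of them were tested, and all 3, CD14 and CSF1R among them, were called higher in every Mig library. Endothelial markers (10 genes) summed to 32.4 CPM against 39.0 to 43.3, with TIE1 and KDR at 2 reads or fewer, but EGFL7 alone made up 84.2% to 88.9% of that sum. Of the 7 tested, 2 were called higher in each Mig library and 2, 1 and 1 lower (normo-Migs, hypo-Migs and CD147KO-Migs). These are 28.6% higher and 14.3% to 28.6% lower, against 16.5% to 17.5% and 10.7% to 10.9% of all genes. PECAM1 had 16 reads with PBS and 118, 146 and 131 with Migs and was called higher in each. TEK had 11 reads with PBS and 0, 3 and 0 with Migs and was called lower in each. CDH5 had 84 and 30, 72 and 59 and was called lower with normo-Migs. The part of these marker shifts in the results was not tested. With 1 library per condition, the treatment and any other property of the library labelled PBS cannot be told apart, and every comparison with it below carries that limit. In bulk RNA, more cells that express a factor and more RNA per cell also cannot be told apart.

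The factors separated into those that were low with PBS (SNAI1 and TWIST1), those that were up to about 2-fold higher with Migs (ZEB1 and TWIST2), SNAI2, whose intervals of change included 0, and ZEB2, which was highest with PBS. For each pair, the reads of 2 libraries were put to an exact binomial test (two-sided, edgeR), which compares those libraries and not the conditions. A gene was called when the adjusted p was at most 0.05 over all genes tested and the log2 fold change was at least 1 in size, the criteria of the study. The intervals given are 95% and cover counting error only.

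**Figure D1:**
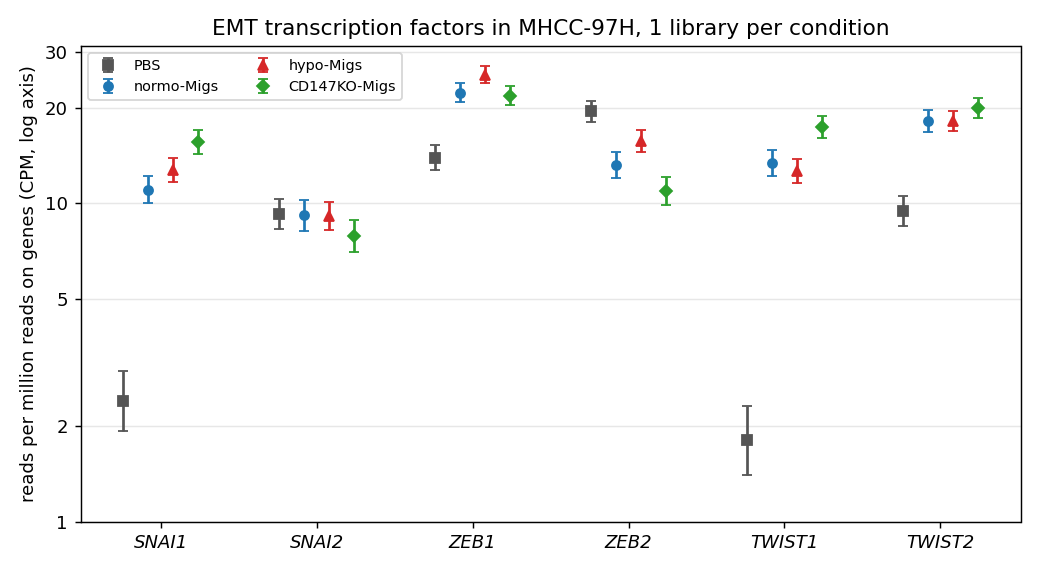
CPM (log axis) of the 6 factors in each library, 1 library per condition; bars are 95% Wilson intervals, which cover counting error only. SNAI1 and TWIST1 sit at 2.39 CPM or less with PBS and between 11.1 and 17.4 CPM with Migs, whereas ZEB2 is highest with PBS at 19.5 CPM.

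SNAI1 (Snail, ENSG00000124216; chr20:49982999-49988886, plus strand, GRCh38), the zinc-finger repressor first tied to loss of E-cadherin, had 81 reads in the PBS library, 382 with normo-Migs, 513 with hypo-Migs and 547 in the CD147KO-Migs library. Per length and depth these were 1.39, 6.59, 7.52 and 9.18 FPKM. All Mig libraries lay above the PBS library. The log2 fold change from PBS was 2.23 with normo-Migs (interval 1.91 to 2.62), 2.42 with hypo-Migs (2.10 to 2.80) and 2.70 with CD147KO-Migs (2.40 to 3.09), and SNAI1 was called in each. These calls stand against a background of 16.5% of genes called higher with normo-Migs than with PBS, 17.5% with hypo-Migs and 16.6% with CD147KO-Migs. Among protein-coding genes with a value above 0, the FPKM of SNAI1 moved from the 33.5th percentile with PBS to between the 61.1st and the 68.7th with Migs.

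SNAI2 (Slug, ENSG00000019549; chr8:48917604-48921740, minus strand), the paralogue active in neural crest and basal epithelia, had 314 reads in the PBS library, 317 with normo-Migs, 367 with hypo-Migs and 277 in the CD147KO-Migs library, or 2.68, 2.72, 2.67 and 2.31 FPKM. Its intervals overlapped in all 4 libraries. The log2 fold change from PBS was 0.03 with normo-Migs (−0.20 to 0.26), 0.01 with hypo-Migs (−0.21 to 0.23) and −0.20 with CD147KO-Migs (−0.44 to 0.04), with adjusted p = 0.824, 0.992 and 0.122. The sign of the values with normo-Migs and hypo-Migs depends on the scaling of the libraries. The intervals leave room for a change of up to 0.44 in log2 with CD147KO-Migs. SNAI2 exceeded SNAI1 in FPKM only in the PBS library, where the ratio of SNAI1 to SNAI2 was 0.519, against 2.42 with normo-Migs, 2.81 with hypo-Migs and 3.97 in the CD147KO-Migs library.

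ZEB1 (ENSG00000148516; chr10:31318495-31529814, plus strand), a large two-handed zinc-finger and homeodomain repressor, had 472 reads in the PBS library, 771 with normo-Migs, 1022 with hypo-Migs and 765 in the CD147KO-Migs library, or 1.58, 2.59, 2.92 and 2.50 FPKM. The PBS library was lowest and the hypo-Migs library highest. The log2 fold change from PBS was 0.72 with normo-Migs (0.56 to 0.89), 0.89 with hypo-Migs (0.74 to 1.06) and 0.67 with CD147KO-Migs (0.51 to 0.84). The adjusted p reached 1.73e-15 or lower in each, but ZEB1 was not called, since no fold change reached 2.

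ZEB2 (SIP1, ENSG00000169554; chr2:144364364-144524583, minus strand), the second repressor of this family, went the other way. It had 661 reads in the PBS library, 456 with normo-Migs, 633 with hypo-Migs and 383 in the CD147KO-Migs library, or 0.763, 0.529, 0.624 and 0.432 FPKM. The PBS library was highest once depth was taken into account, at 19.5 CPM against 13.2, 15.7 and 10.9. The log2 fold change from PBS was −0.52 with normo-Migs (−0.69 to −0.34), −0.28 with hypo-Migs (−0.44 to −0.12) and −0.81 with CD147KO-Migs (−0.99 to −0.62), and ZEB2 was not called. Genes called lower made up 10.7%, 10.9% and 10.9% of those tested in these comparisons. Both ZEB genes carry the miR-200 matches shown above, and the ratio of ZEB1 to ZEB2 in FPKM was 2.07 in the PBS library, 4.90 with normo-Migs, 4.68 with hypo-Migs and 5.79 in the CD147KO-Migs library.

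TWIST1 (ENSG00000122691; chr7:19020991-19117672, minus strand), the bHLH factor of mesoderm and cranial suture development, had 61 reads in the PBS library, 463 with normo-Migs, 510 with hypo-Migs and 608 in the CD147KO-Migs library, or 0.868, 6.63, 6.20 and 8.46 FPKM. It was the factor with the largest difference between the PBS library and the Mig libraries. The log2 fold change from PBS was 2.90 with normo-Migs (2.56 to 3.35), 2.81 with hypo-Migs (2.46 to 3.25) and 3.25 with CD147KO-Migs (2.91 to 3.70), called in each. Its FPKM moved from the 28.98th percentile of protein-coding genes with PBS to between the 59.9th and the 66.8th with Migs.

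TWIST2 (Dermo1, ENSG00000233608; chr2:238848032-238910543, plus strand), the close relative expressed in dermis, had 321 reads in the PBS library, 627 with normo-Migs, 731 with hypo-Migs and 700 in the CD147KO-Migs library, or 4.94, 9.71, 9.61 and 10.5 FPKM. The Mig libraries lay within a 1.10-fold range of each other, all above the PBS library. The log2 fold change from PBS was 0.98 with normo-Migs (0.79 to 1.18), 0.97 with hypo-Migs (0.78 to 1.16) and 1.10 with CD147KO-Migs (0.91 to 1.30). TWIST2 was called only with CD147KO-Migs, although the values differ by less than their intervals and straddle the criterion of 1, so the call does not set that library apart. In all, 2 of 6 factors were called with normo-Migs, 2 with hypo-Migs and 3 in the CD147KO-Migs library, all higher than with PBS, where 16.5%, 17.5% and 16.6% of all genes were called higher.

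**Figure D2:**
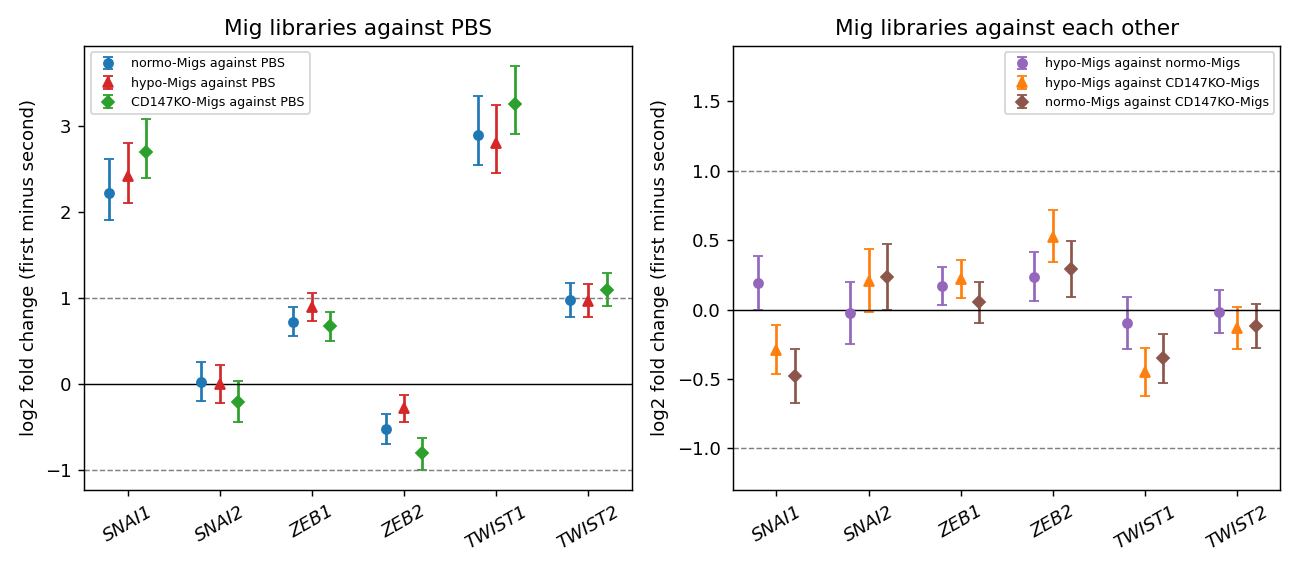
Log2 fold change of each factor (first library minus second, prior count 2) in the comparisons with PBS (left) and between Mig libraries (right, different scale); bars are exact 95% intervals for counting error and dashed lines mark a log2 fold change of 1 in size. SNAI1 and TWIST1 are above 2 in every comparison with PBS, and every factor is within 0.53 of 0 between Mig libraries.

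Set side by side per length, TWIST2 was the most abundant factor mRNA and ZEB2 the least abundant in all 4 libraries. The summed FPKM of the factors was 12.2 in the PBS library, 28.8 with normo-Migs, 29.5 with hypo-Migs and 33.4 in the CD147KO-Migs library. Of this sum, SNAI1 held 11.4% with PBS and 22.9% to 27.5% with Migs, and TWIST1 held 7.10% and 21.0% to 25.3%. SNAI2 held 21.9% with PBS and 6.91% to 9.45% with Migs. In the PBS library TWIST2 exceeded TWIST1 by 5.70 times, whereas with Migs the ratio was 1.47 (normo-Migs), 1.55 (hypo-Migs) and 1.25 (CD147KO-Migs). The order with PBS was TWIST2, SNAI2, ZEB1, SNAI1, TWIST1 and ZEB2. With hypo-Migs and with CD147KO-Migs it was TWIST2, SNAI1, TWIST1, ZEB1, SNAI2 and ZEB2, and with normo-Migs TWIST1 preceded SNAI1 by 6.63 to 6.59 FPKM, and SNAI2 preceded ZEB1 by 2.72 to 2.59 FPKM.

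**Figure D3:**
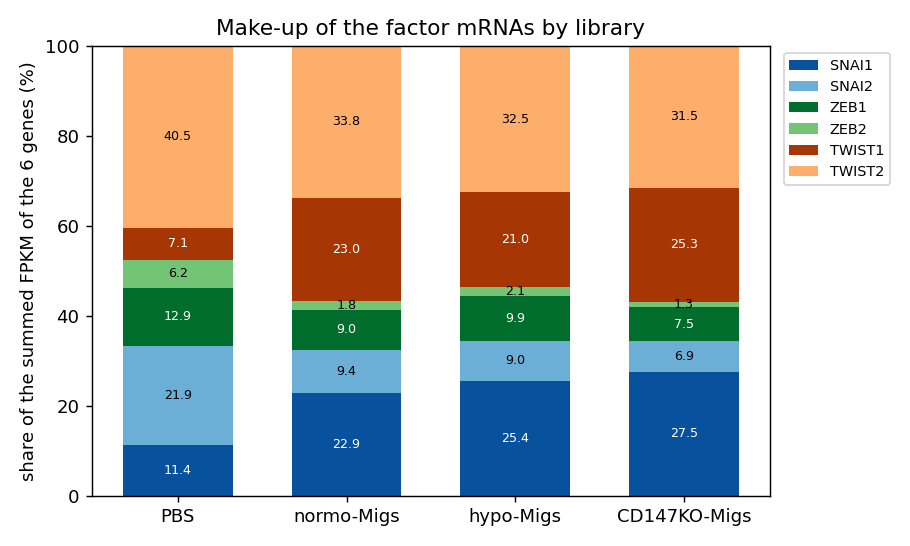
Share of each factor in the summed FPKM of the 6 genes, in percent, in each library; FPKM is per length, so genes can be compared. SNAI1 and TWIST1 take 11.4% and 7.10% with PBS and together the larger part of the change with Migs, while TWIST2 is the largest share in every library.

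The comparisons among Mig libraries ask whether hypoxia of the donor cells (hypo-Migs against normo-Migs), or CD147 in them (hypo-Migs against CD147KO-Migs), changed what recipients expressed. Normo-Migs and CD147KO-Migs differ in both donor oxygen and donor CD147, so that pair cannot tell these apart. None of the 6 factors was called in any of these pairs, in which 4.87% (hypo-Migs against normo-Migs), 5.05% (hypo-Migs against CD147KO-Migs) and 4.90% (normo-Migs against CD147KO-Migs) of genes were called. The factors nevertheless fell into different orders. SNAI1 and TWIST1 were highest with CD147KO-Migs, and ZEB1 and ZEB2 were highest with hypo-Migs.

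TWIST1 was lower with hypo-Migs than with CD147KO-Migs by a log2 fold change of −0.45 (−0.62 to −0.28, adjusted p = 6.82e-06) and lower with normo-Migs by −0.35 (−0.53 to −0.18, adjusted p = 0.000837). Between hypo-Migs and normo-Migs it differed by −0.10 (−0.28 to 0.09, adjusted p = 0.495). The hypo-Migs library, at 12.7 CPM, was the lowest of the Mig libraries, and the CD147KO-Migs library, at 17.4 CPM, the highest. SNAI1 had the same position at the top, with −0.29 for hypo-Migs against CD147KO-Migs (−0.47 to −0.11, adjusted p = 0.00858) and −0.48 for normo-Migs against CD147KO-Migs (−0.67 to −0.29, adjusted p = 1.36e-05). Hypo-Migs exceeded normo-Migs by 0.19 (−0.005 to 0.38, adjusted p = 0.152) for SNAI1.

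ZEB2 showed the widest range among the Mig libraries, 1.44-fold, against 1.39-fold for SNAI1, 1.37-fold for TWIST1 and a median of 1.12-fold over all genes that averaged 50 reads or more. It was higher with hypo-Migs than with CD147KO-Migs by 0.53 (0.34 to 0.71, adjusted p = 5.34e-07) and than with normo-Migs by 0.24 (0.06 to 0.41, adjusted p = 0.0343), and higher with normo-Migs than with CD147KO-Migs by 0.29 (0.09 to 0.49, adjusted p = 0.0201). ZEB1 was higher with hypo-Migs than with CD147KO-Migs by 0.22 (0.08 to 0.36, adjusted p = 0.00931). SNAI2 and TWIST2 differed by 0.23 or less in log2 in every Mig pair, with adjusted p of 0.139 or more.

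Counting p values at this depth are small for many genes. On adjusted p alone, 1 of 6 factors passed for hypo-Migs against normo-Migs, 4 for hypo-Migs against CD147KO-Migs and 3 for normo-Migs against CD147KO-Migs, where 24.5%, 25.2% and 24.6% of all genes passed. A dispersion was also estimated by edgeR from the Mig libraries taken as if they were replicates (coefficient of variation 0.0746). With it, none of the factor differences among Mig libraries passed. That dispersion counts any difference between the Mig conditions as spread, so this outcome cannot decide whether the conditions differ.

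At the ZEB1 locus the antisense RNA was called where ZEB1 was not. ZEB1-AS1 (chr10:31206278-31320447, minus strand), transcribed from the opposite strand and overlapping 366 exon bases of ZEB1, had 44 reads in the PBS library, 102 with normo-Migs, 169 with hypo-Migs and 69 in the CD147KO-Migs library. It was higher with hypo-Migs than with CD147KO-Migs by a log2 fold change of 1.08 (0.68 to 1.52, adjusted p = 1.45e-06). For every 100 reads of ZEB1 there were 9.32 reads of ZEB1-AS1 in the PBS library, 13.2 with normo-Migs, 16.5 with hypo-Migs and 9.02 in the CD147KO-Migs library. Strand handling is not given in the sources used here, so reads from the overlap cannot be assigned to either strand. At the other loci the antisense neighbours had few reads. ZEB2-AS1, with 1299 exon bases in common with ZEB2, had 4 reads with normo-Migs and 0 elsewhere, and AC003986.2 at TWIST1 had 0, 15, 4 and 10 reads in the order PBS, normo-Migs, hypo-Migs and CD147KO-Migs. Inside introns of ZEB1, the pseudogene SPTLC1P1 had 20, 1, 3 and 11 reads and AL117340.1 had 2 reads with CD147KO-Migs. AC009951.1 within ZEB2 had 6, 0, 0 and 2 reads, the remaining 4 overlapping genes of ZEB2 had 0, and no gene overlapped SNAI1, SNAI2 or TWIST2.

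The CAGGTG motif recognised by SNAI and ZEB was searched on both strands (CAGGTG or CACCTG) in RefSeq promoter windows (GRCh38.p14, 250 bases before to 50 after a start site). It occurred in 20.6% of 35116 windows, or in at least 1 window of 24.1% of 27305 genes. ZEB1 had it in 2 of 7 windows, and ZEB2 and TWIST2 in 0 of 1 each. Of its 4 motif positions, 2 are in a ZEB1-AS1 window as well. These 2 are shown on the ZEB1 strand with the motif in capitals:
ZEB1, chr10:31319121-31319146, plus strand: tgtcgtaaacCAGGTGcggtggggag
ZEB1, chr10:31319239-31319264, plus strand: cggatggcccCAGGTGtaagcgcaga

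The genes around the factors were grouped in 11 lists of 192 genes, of which 160 were tested. Against PBS, 42 were called higher and 23 lower with normo-Migs, 42 and 25 with hypo-Migs, and 39 and 26 with CD147KO-Migs. These are 26.2%, 26.2% and 24.4% called higher and 14.4%, 15.6% and 16.2% called lower, against 16.5%, 17.5% and 16.6% higher and 10.7%, 10.9% and 10.9% lower over all genes, and the counts of each list below are to be read against these shares of all genes. Between Mig libraries, 2, 3 and 2 of them were called (hypo-Migs against normo-Migs, hypo-Migs against CD147KO-Migs, and normo-Migs against CD147KO-Migs), or 1.25%, 1.88% and 1.25%, below the 4.87%, 5.05% and 4.90% of all genes.

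Epithelial genes that SNAI and ZEB repress in other systems (29 genes, all tested) were divided. With PBS as the reference, 4 were called higher in each Mig library and 12 (normo-Migs), 12 (hypo-Migs) and 13 (CD147KO-Migs) lower. The share called higher, 13.8%, was below that of all genes (16.5% to 17.5%), and the share called lower, 41.4% to 44.8%, was above it (10.7% to 10.9%). The median log2 fold changes of the list were −0.77, −0.59 and −0.67, against 0.03 to 0.04 over all genes. KRT19, a keratin of ductal and progenitor cells, had 11287 reads with PBS and 75, 52 and 32 with normo-Migs, hypo-Migs and CD147KO-Migs, log2 fold changes of −7.18, −7.92 and −8.40. OCLN, the tight junction protein occludin, had 611 reads with PBS and 41, 34 and 24 with Migs, log2 fold changes of −3.82, −4.30 and −4.58. CDH1, which encodes E-cadherin and is the best-known target of SNAI1, ZEB1 and TWIST1, had 0 reads with PBS and 114, 123 and 112 with Migs, at least 38.5-fold, 35.3-fold and 36.8-fold higher (3 reads set as the limit for 0). RAB25, an epithelial trafficking GTPase, had 0 reads with PBS and 90, 123 and 122 with Migs, at least 30.4-fold, 35.3-fold and 40.1-fold higher. The other members called higher were EPCAM, an epithelial adhesion molecule (1.34, 1.45 and 1.37), and CGN, the junction protein cingulin (3.72, 3.86 and 3.76). SNAI1 and TWIST1 were thus higher in the same libraries in which CDH1 was detected and KRT19 and OCLN were lower.

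Promoter windows were at hand for 17 of these 29 genes, and 12 of the 17 held the motif. The list was written from known targets, so that share is not an independent result. Among genes called lower in all Mig libraries 5 of 6 with a window held it, among those called higher 1 of 2, and among the rest 6 of 9. CRB3 (crumbs polarity protein) and CLDN7 (claudin of tight junctions) held the most positions, 5 each, and both were called lower. For each, a pair is shown beside 1 of OCLN, with the motif in capitals:
CRB3, chr19:6464114-6464139, plus strand: ggtcccgttaCAGGTGcgcccacagc
CRB3, chr19:6464172-6464197, plus strand: cagcgaggctCAGGTGcacaagccgg
CLDN7, chr17:7262598-7262623, minus strand: acttccggttCAGGTGagtgtccctt
CLDN7, chr17:7262472-7262497, minus strand: aggtgcgcccCACCTGtccgcccgca
OCLN, chr5:69492504-69492529, plus strand: atccgagtttCAGGTGaattggtcac

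Mesenchymal genes that the factors raise in other systems (26 of 30 tested) had 13, 12 and 12 called higher with normo-Migs, hypo-Migs and CD147KO-Migs than with PBS and 4 called lower in each, with medians of 0.98, 0.69 and 0.79. The share called higher was 46.2% or more, against 16.5% to 17.5% of all genes, whereas the share called lower, 15.4%, was near the 10.7% to 10.9% of all genes. SPARC, a matricellular protein, had 0 reads with PBS and 13404, 16845 and 15206 with Migs, at least 4526-fold, 4828-fold and 4995-fold higher. COL5A2, a chain of type V collagen, had 18 reads and 14903, 18267 and 15633, log2 fold changes of 9.56, 9.63 and 9.59. MMP2, a gelatinase, had 6 reads and 3272, 3515 and 2836, and THY1, a surface marker of fibroblasts and stem-like cells, had 11 reads and 1681, 2082 and 1859. In these comparisons 9, 10 and 10 of the tested members were not called. VIM (vimentin), among them, had 9767 reads with PBS and 9755, 11298 and 9064 with Migs. The members called lower were AXL, a receptor kinase, CDH2, which encodes N-cadherin, LOX, a collagen cross-linking enzyme, and POSTN (periostin). CDH2, whose rise usually accompanies EMT, was lower by −1.21, −1.18 and −1.299, and POSTN had 10 reads with PBS and 0 in every Mig library, at least 3.29-fold, 3.88-fold and 3.38-fold lower. The SPARC, COL5A2, MMP2 and THY1 differences between the PBS library and the Mig libraries are far wider than those of any EMT factor, and the part played by the PBS library itself was not tested. Between Mig libraries, TAGLN (transgelin, an actin-binding protein) had 164 reads with normo-Migs and 82 with CD147KO-Migs and was called there, at 1.02.

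Among the 11 lists, that of the E proteins and ID proteins had the highest median against PBS. Of the E proteins and ID proteins, 6 of 7 were tested, and 4 were called higher with each of the Mig libraries than with PBS and 0 lower (medians 1.92, 1.86 and 1.82). That is 66.7% called higher, against 16.5% to 17.5% of all genes, in a list of few genes. TCF4, the E protein E2-2 with which TWIST1 can dimerise, had 19 reads with PBS and 418, 455 and 395 with Migs, log2 fold changes of 4.34, 4.24 and 4.22. It stayed at 0.437 FPKM or less. The other E proteins were more abundant and were not called. TCF3 had 34.9 FPKM with PBS and 40.7, 39.0 and 40.6 with Migs, and TCF12 had 7.97 and 7.24, 8.05 and 7.33. The remaining called genes were ID1, ID2 and ID3. The ID proteins, which bind E proteins without binding DNA, were abundant. ID1 had 113 FPKM with PBS and 424, 417 and 411 with Migs, ID3 had 60.7 and 228, 214 and 204, and ID2 had 1.98 and 15.0, 16.4 and 15.0. Among relatives of the Snail and Twist families, 5 of 13 were tested. HAND1, a bHLH factor of heart and trophoblast, had 0 reads with PBS and 467, 461 and 353 with Migs, and MSC (musculin), a bHLH repressor, had 0 reads and 962, 958 and 827. They were at least 116-fold and 272-fold higher in every Mig library. TCF24, a little-studied bHLH gene, had 20 reads with PBS and 11, 3 and 8 with Migs and was called lower in the hypo-Migs and CD147KO-Migs libraries.

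Genes that change the activity or half-life of SNAI and ZEB proteins mostly did not pass the criteria. Of 24 co-repressors and chromatin partners, 1 was called higher and 1 lower with each of the Mig libraries than with PBS (medians −0.06, −0.11 and −0.05), or 4.17% in either direction, below the shares of all genes. KDM1A, the demethylase LSD1 recruited by the SNAG domain of SNAI1, was lower by log2 fold changes of −1.49, −1.54 and −1.59, and WTIP, a LIM-domain protein of the Ajuba family, was higher by 1.57, 1.70 and 1.69. Of 23 regulators of protein stability, 3 were called higher in each comparison and 0, 1 and 1 lower (medians −0.08, −0.19 and −0.04), the lower calls being SIAH2 with hypo-Migs (−1.01) and USP10 with CD147KO-Migs (−1.003), both near the criterion. USP27X, a deubiquitinase of SNAI1, was higher by 2.75, 2.59 and 2.60, and PRKD1, a kinase that phosphorylates SNAI1, had 5 reads with PBS and 45, 68 and 37 with Migs. USP51, a deubiquitinase of ZEB1, had 0 reads in the PBS library, 22 with normo-Migs, 60 with hypo-Migs and 24 in the CD147KO-Migs library. It was called higher with hypo-Migs than with normo-Migs (1.15) and than with CD147KO-Migs (1.07). ZEB1 mRNA was also highest with hypo-Migs, but only by 0.17 and 0.22 in these pairs, and it was not called. A link between USP51 and ZEB1 was not tested.

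Other EMT-inducing transcription factors (13 of 17 tested) were called higher in 7, 8 and 6 cases and lower in 1 case each, FOXQ1, with normo-Migs, hypo-Migs and CD147KO-Migs than with PBS (medians 1.58, 1.24 and 0.92). The share called higher was 53.8%, 61.5% and 46.2%, against 16.5%, 17.5% and 16.6% of all genes. SOX9, a progenitor-cell factor, had 7 reads with PBS and 327, 441 and 391 with Migs. SIX2, a homeobox factor, had 51 and 1690, 1815 and 1696, and FOXC2, a forkhead factor of mesenchyme, had 29 and 685, 787 and 604. HMGA2, a chromatin protein that acts upstream of SNAI1 and TWIST1 in TGF-β signalling, had 39 and 343, 457 and 346.

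Epithelial guardian factors, which oppose EMT, were split, with 3 of 13 tested (16 listed) called higher and 3 lower in each comparison with PBS (medians 0.46, 0.65 and 0.05), or 23.1% in each direction. OVOL2, a repressor of ZEB1, was higher by 2.53, 2.58 and 2.13. FOXA2, a liver-enriched forkhead factor, had 0 reads with PBS and 60, 43 and 41 with Migs. GRHL3, a grainyhead factor of epidermis, had 33 reads with PBS and 6, 11 and 1 with Migs and was called higher with hypo-Migs than with CD147KO-Migs (2.00, interval 0.48 to 8.69), on few reads. EHF and ESRP2, an ETS factor and an epithelial splicing factor, were the other members called lower, by −1.55, −1.22 and −1.04 and by −1.25, −1.38 and −1.18.

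Upstream inducers (18 genes, all tested) had 4 called higher and 2 lower with each of the Mig libraries than with PBS (medians −0.15, −0.11 and −0.08). The shares, 22.2% higher and 11.1% lower, were near those of all genes. TGFBR1, the type I TGF-β receptor, was higher by 1.91, 1.99 and 1.62, and BMP4, a ligand of the same superfamily, by 1.89, 2.34 and 2.28. IL6 (interleukin 6) had 0 reads with PBS and 110, 181 and 180 with Migs, at least 37.1-fold, 51.9-fold and 59.1-fold higher, and WNT3A had 0 reads and 6, 10 and 10. EGFR and MET, both receptor kinases, were called lower, by −1.17, −1.15 and −1.16 and by −1.08, −1.04 and −1.17. Of the 10 miRNA genes of the ZEB and SNAI loops only the host gene MIR34AHG was tested, with 424 reads with PBS and 466, 582 and 633 with Migs, and it was not called. Of the antisense and pseudogene loci, 2 of 5 were tested, and 1 was called higher with normo-Migs and with hypo-Migs and 0 with CD147KO-Migs. In the epithelial list, 2 genes were called between Mig libraries. MARVELD3, a tight junction protein, had 17 reads with normo-Migs and 5 with hypo-Migs (−1.63), and KRT19 had 75 with normo-Migs and 32 with CD147KO-Migs (1.22).

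The pattern of each factor over the 4 libraries was set beside those of 12186 other protein-coding genes that averaged 50 reads or more, by the root mean square (RMS) difference in centred log2 CPM. With only 4 libraries, 1 of which stands apart, likeness over them is weak. Nearest to SNAI1 were GPRASP2 (0.04), JDP2 (0.05), an AP-1 family repressor, and EFR3B (0.05). Nearest to TWIST1 were CCDC69 (0.04), C1QL4 (0.05) and KCNIP3 (0.05), a calcium-binding regulator of transcription. Only 12 and 11 genes came within an RMS difference of 0.1 of SNAI1 and TWIST1. ZEB2 was nearest to NR1D1 (0.05), the circadian repressor REV-ERBα, CABP4 (0.05) and MARCHF3 (0.05), with 28 genes within 0.1.

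The other factors had common patterns. ZEB1 was nearest to DOP1A, STK38L, a kinase of the Hippo family, and ECHDC1 (each 0.02), with 444 genes within 0.1. TWIST2 was nearest to CD99 (0.01), a surface glycoprotein, KLHL5 (0.03) and FIBCD1 (0.03), with 364. SNAI2 was nearest to TRAF3IP1 (0.009), CBR3 (0.010) and SAMD11 (0.012), with 1200. Among the factors themselves the closest pairs were ZEB1 and TWIST2 (0.17), SNAI2 and ZEB2 (0.24), and SNAI1 and TWIST1 (0.25), so the patterns did not pair by gene family.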

How the data were processed

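RNA was sequenced from MHCC-97H cells, 1 library for each of 4 conditions. The authors deposited raw read counts per gene, without normalization, and FPKM, in which reads are divided by gene length and by library size. Per the submitters' processing notes, CASAVA 1.8, fastp, HISAT2 2.0.5, featureCounts 1.5.0-p3 and the hg38 build were used. The labels name a SMARTer mRNA kit, whereas the supplementary methods describe poly-T beads and random hexamers. Strand handling is not given in the sources used here, which bears on antisense genes.

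Coordinates of all 6 factors in the files equal those of GENCODE release 29. Genes were matched by Ensembl identifier, since some symbols had been turned into dates in both tables, and MARCHF3 was named from its identifier. Genes that reached 10 reads in any library (19895) were tested in R 4.3.3. After TMM scaling over the 4 libraries, edgeR 4.0.16 (binomTest, two-sided, dispersion 0) compared the reads of each of 6 library pairs, with Benjamini-Hochberg adjustment over all genes tested and a prior count of 2 for log2 fold changes. A quasi-likelihood test could not be fitted without replicates. Intervals are exact (ratios) or Wilson (CPM), both 95%, and cover counting error only. The procedure was run on simulated data with planted changes and counting error only, as the test itself assumes. That run cannot show how the test performs where libraries differ by more than counting error. Alternatives concerned scaling, the read filter, the prior count, FPKM in place of reads, protein-coding genes alone, assumed spreads, DESeq2 1.42.0 and the fold change alone. Figures were drawn with Python 3.11.15 and matplotlib 3.10.9.

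The factors, the 11 gene lists, the marker lists and the tests were chosen with earlier results of these data known. From each list the text names genes called in a Mig pair and up to 4 genes called in all 3 PBS pairs with the largest mean change. It also names the 3 genes nearest in pattern to each factor and the genes overlapping a factor. CRB3 and CLDN7, named for their motifs, TCF3, TCF12 and VIM, and other members of small counts of calls were added after their values were seen. Marker genes are given by their sums, their members at or near 0 and some of the others, called or not, chosen after their values were seen. The values of 2 listed genes are not reported here.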

Additional observations from a re-analysis of the deposited data

How the results depend on the processing

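The count of factors called did not change in 79 of 84 recalculations or stayed within 1.5 times, which includes a change from 3 to 2. Among these are the pairs of Mig libraries, where every factor was within 0.53 of 0 in log2. There the count was 0 under every setting and had little room to change. The 5 recalculations that went further were all comparisons with PBS. DESeq2 with its dispersion taken over the 4 libraries called 0 factors in each comparison with PBS (against 2, 2 and 3), and also 0 of all genes in all 6 comparisons. An assumed coefficient of variation of 0.4 called 1 factor (TWIST1) with normo-Migs and 1 with hypo-Migs against PBS, SNAI1 being lost with adjusted p of 0.113 and 0.0695. TWIST2 with CD147KO-Migs lost its call under log2(FPKM + 1) (0.96), under that coefficient of variation and under DESeq2. Directions of factor fold changes were kept except where the value was near 0. For SNAI2 with normo-Migs against PBS, scaling to total reads gave −0.015. For SNAI2 with hypo-Migs against PBS, the value was −0.025 with total reads, −0.0087 with DESeq2 size factors, −0.0095 with upper quartile factors, −0.015 with protein-coding genes only, −0.0016 with log2(FPKM + 1), −0.0022 with log2(FPKM + 0.1) and −0.0087 with DESeq2. For TWIST2 with hypo-Migs against normo-Migs, total reads gave 0.00026. All 48 recalculated levels stayed within their counting intervals.

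Counts over all genes, which set the background, moved more. Between hypo-Migs and normo-Migs they were 969 as reported, 235 with 10 reads required in every library, 366 with protein-coding genes only, 56 with log2(FPKM + 1), 259 and 0 with coefficients of variation of 0.1 and 0.4, 334 with the dispersion of the Mig libraries and 1869 on the fold change alone; the other Mig pairs moved alike. Against PBS the counts were 5414, 5640 and 5462 as reported (normo-Migs, hypo-Migs, CD147KO-Migs), 2683, 2747 and 2752 with 10 reads in every library, 3586, 3685 and 3630 with protein-coding genes only, 1619, 1674 and 1658 with log2(FPKM + 1), and 1535, 1633 and 1575 with a coefficient of variation of 0.4. Fewer genes are tested under both filters, and for the other settings the cause was not tested. No paired analysis was possible because each condition had 1 library, and for the same reason no library could be left out of a comparison.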

Other observations

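The seeds of other miRNAs that act on EMT factors were searched in the same 3′ UTRs. The match to miR-203a-3p (CATTTCA) occurred 4 times in ZEB1 and 1 time each in ZEB2 and SNAI2. Of 3′ UTRs of the length of ZEB1, 0.0911% held as many as ZEB1, itself included. The match to miR-34a-5p (CACTGCC) occurred 1 time in SNAI1 and 1 time in ZEB1, and that to miR-205-5p (ATGAAGG) 1 time in ZEB1. TWIST1 and TWIST2 held 0 matches to any of the seeds searched. MIR203A had 1 read with CD147KO-Migs and 0 elsewhere, and MIR205HG had 2 reads with hypo-Migs and 0 elsewhere, so neither locus was detectable above 3 reads in these mRNA libraries.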
